A study of Mus musculus with 502 samples.

Results

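Transcripts of kidney epithelial genes were looked for in single leukocytes sorted from mouse kidney. The set held 8 genes, chosen by symbol: Umod, Slc12a1, Slc34a1, Lrp2, Miox, Gpx3, Fxyd2 and Spp1. All 8 were found among the 46603 gene rows of the count table. The cells were 502 Cd45+, propidium iodide-negative cells from unperfused kidneys of CD1 wild-type mice about 3 weeks old. Kidneys were dissociated at once (fresh) or stored whole at 4 °C in HTS-FRS, a hypothermic preservation solution, for 6 h, 1 day, 2 days, 3 days or 4 days. Both kidneys of a mouse were pooled, or part of them at the latest times, and no label names an animal, so each timepoint was 1 sample and cells were not replicates of it. Full-length cDNA was made in plates from each cell with a SmartSeq2-type protocol, which has no molecular identifiers. Because cells were not replicates, no test was made between timepoints, pools or gates. The exact Clopper-Pearson intervals given at the 95% level cover counting error only.

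The nephron is lined by epithelial segments with distinct genes. The proximal tubule reabsorbs filtered phosphate, protein and sugars, the thick ascending limb takes up salt and secretes uromodulin, and neither segment carries Cd45, the surface protein encoded by Ptprc. Leukocytes are not known as a source of uromodulin or of the sodium-phosphate and sodium-potassium-chloride transporters of the tubule. By contrast, Spp1 and Gpx3 are made in other tissues too, macrophages included in the case of Spp1.

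The cells fell into 3 library pools, called A, B and C, which are numbers in the labels. Pool A held the 6 h cells (76), the day 2 cells (78), 75 fresh cells and also 2 from day 4. In pool B were the day 1 cells (75), the day 3 cells (82), 81 fresh cells and 19 cells of day 4, and all 14 cells of pool C were of day 4. Timepoint and pool could therefore not be told apart except where fresh cells of the same pool served as comparison. Totals on genes ran from 1759 to 1895431 counts per cell, with a median of 849187 in pool A, 528731 in pool B and 1128170 in pool C. Ptprc was read in 456 of the 502 cells (90.8%). The other leukocyte markers were read in 276 cells (Fcer1g) to 470 cells (Laptm5).

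At least 1 count of any of the 8 genes was found in 33.1% of the 502 cells (interval 29% to 37.4%). At 5 or more counts the share was 22.5% (interval 18.9% to 26.4%). A single gene of the set was read in 24.7% of all cells, while 25 cells held 2, 13 held 3 and 4 held 4, and no cell held more. Gpx3, Fxyd2 and Spp1 were read in 70, 64 and 55 cells, and the other 5 genes in 18 cells or fewer. The median gene among the 20568 rows read at all was read in 20 cells. Per kilobase of exon, the mean level over all cells was 25.1 rpm for Spp1, 22.4 for Gpx3, 8.24 for Fxyd2, 6.05 for Miox, 0.982 for Slc34a1, 0.970 for Umod, 0.443 for Slc12a1 and 0.0402 for Lrp2. Here rpm means counts per 1000000 of a cell's counts on genes. Without the highest cell of each gene, Gpx3 (18.6) stood above Spp1 (18.2) and Umod (0.549) above Slc34a1 (0.392), and on summed counts both orders turned in the same way (24.2 and 18.8, 1.06 and 0.848). The order within these pairs is therefore not settled by these cells, and single cells held 16.4% (Spp1) to 97.2% (Lrp2) of a gene's counts. The place of Fxyd2 rests on the annotated exon length used, 4005 bases against 1648 for Spp1 and 1813 for Gpx3. Not per kilobase, its mean was 33.01 rpm, against 41.39 for Spp1 and 40.57 for Gpx3. On summed counts, also not per kilobase, Fxyd2 stood above Spp1 and below Gpx3. The length of the transcripts in these cells was not tested, so the rank of Fxyd2 is not settled either.

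Promoter sequence is shown because several tubule genes, Umod among them, are known to depend on HNF1 factors, which bind sites that hold GTTAAT or its reverse complement. These letters were searched on both strands in the 250 bases before the start of each RefSeq gene (GRCm38.p6). RefSeq starts can differ from the ends of the GENCODE genes given with each member; the Slc34a1 window lies inside the GENCODE gene, downstream of its first base. Windows were present for 7 of the 8 genes, Spp1 with a pair of starts; Fxyd2 had none in the table. These 6 letters were found in 4 of these 8 windows, of Umod, Slc34a1, Miox and Spp1, and in 6.43% of all 32851 windows. The matches are shown in capitals within their neighbouring bases, 5′ to 3′ on the strand of the gene. A match of letters is a description and not a bound site.
Umod, minus strand, chr7:119479439-119479484: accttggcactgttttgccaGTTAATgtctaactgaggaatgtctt
Slc34a1, plus strand, chr13:55399539-55399584: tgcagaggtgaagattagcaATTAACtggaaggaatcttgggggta
Slc34a1, plus strand, chr13:55399567-55399612: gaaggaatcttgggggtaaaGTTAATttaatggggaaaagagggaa
Miox, plus strand, chr15:89334311-89334356: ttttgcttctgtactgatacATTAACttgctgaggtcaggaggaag
Spp1, plus strand, chr5:104434897-104434942: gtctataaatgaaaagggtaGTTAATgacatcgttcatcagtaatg

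Umod encodes uromodulin, the protein that the thick ascending limb secretes into urine. The gene lies on chromosome 7 from 119462711 to 119479282 on the minus strand and overlaps Gm44588 on the opposite strand; because strand was not used in counting, reads of the overlap cannot be assigned. It was read in 18 cells (3.59%, interval 2.14% to 5.61%), 17 of them in pool A. The counts fell into 2 ranges with nothing between them. In 5 cells they were 90 to 421 counts (105.9, 184.9, 188.3, 261.4 and 586.1 rpm), and in the other 13 cells they were 1 to 3. The 5 cells were 3 fresh cells of pool A, 1 cell of day 2 and 1 cell of day 1, the only cell of pool B with a count. All 13 cells with 1 to 3 counts were in pool A: 1 fresh, 3 of 6 h and 9 of day 2. In pool A, Umod was thus read in 5.33% of 75 fresh cells, 3.95% of 76 cells after 6 h and 12.8% of 78 day 2 cells. In pool B, the single cell was 1.33% of the 75 cells of day 1, and the 81 fresh and 82 day 3 cells held none. The 35 cells of day 4 held none either. Taking 3 cells of the total as the limit that a count of 0 allows, 0 in 81 cells allows a share of up to 3.70%, in 82 cells up to 3.66% and in 35 cells up to 8.57%. The exact intervals reach 4.45%, 4.40% and 10%. In the plot of shares, day 4 is drawn by pool, and there the exact intervals reach 17.6% in pool B and 23.2% in pool C.

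Slc12a1 encodes the sodium-potassium-chloride cotransporter of the thick ascending limb, the target of loop diuretics. It lies on chromosome 2 from 125152505 to 125230002 (plus strand; Gm14002 on the opposite strand). It was read in 6 cells (1.20%, interval 0.440% to 2.58%). A cell of day 2 held 729 counts, a fresh cell of pool A held 92, and 4 cells held 1 count each. The 4 cells with 1 count were all of day 2 and all from row G of the plate, from which 6 cells were sequenced. The cell with 729 counts (1173 rpm) also held Umod (188.3 rpm), Fxyd2 (495.6 rpm) and Spp1 (226.9 rpm), and 1666 counts of the B cell gene Cd79a and 548 of Ptprc. It was the only cell with 5 or more counts of both thick ascending limb genes. The other 4 cells with 90 or more Umod counts held no Slc12a1 count, so the ratio of the pair was not fixed between cells.

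Slc34a1 encodes the sodium-phosphate cotransporter of the proximal tubule brush border. Its gene lies on chromosome 13 from 55398187 to 55415592 on the plus strand and overlaps Pfn3 on the opposite strand. It was read in 6 cells (1.20%), at 54.5 and 331.6 rpm in fresh cells of pool A, 98.5 and 276.1 rpm after 6 h, 158.5 rpm in a day 1 cell and 1387 rpm in a day 2 cell. The lowest value was 34 counts, no cell held 1 to 4, and so the share was the same at both thresholds. None of the 81 fresh cells of pool B, the 82 cells of day 3 and the 35 cells of day 4 held a count.

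Lrp2 encodes megalin, the endocytic receptor of the proximal tubule (chromosome 2, 69424340 to 69586065, minus strand). It was the gene of the set read least often, with 375 counts in a cell of 6 h, 10 in a cell of day 3 and 1 in a cell of day 1. The cell with 375 counts held 4904 of Cd79a and, of the other 7 members, only 1 count of Fxyd2.

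Miox encodes myo-inositol oxygenase, an enzyme of the proximal tubule (chromosome 15, 89334398 to 89337015, plus strand). It was read in 7 cells, at 245.9 rpm in a fresh cell of pool A, 249.7 rpm (and 3 counts in another cell) after 6 h, 152.6 rpm in a day 1 cell, 2925 and 730.9 rpm in day 2 cells and 708.0 rpm in a day 3 cell. The cell with 2891 counts also held 3474 of Gpx3, 1130 of the T cell gene Cd3e and 812 of Ptprc. That cell alone held 58.5% of all Miox counts and 22.8% of all Gpx3 counts. The 727 counts were in a cell with 3313 of Cd79a and no Gpx3.

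Together, 19 cells held 5 or more counts of Umod, Slc12a1, Slc34a1, Lrp2 or Miox, the genes of the set most closely tied to the tubule. Of these, 6 were fresh cells of pool A, 4 were of 6 h, 3 of day 1, 4 of day 2 and 2 of day 3. All 19 held Ptprc, at 9 counts or more and a median of 634; 437 of the 483 other cells did, and their median, cells with none included, was higher, at 808. By the gates described below, 7 of the 19 were C1qb cells, 3 Cd3e cells, 5 Cd79a cells and 4 none of these. Only 2 of the 19 held 5 or more counts of 2 of these 5 genes, Umod with Slc12a1 in one and Slc34a1 with Miox in the other. They had a median of 2323 genes and 784151 counts, against 1863 genes and 692204 counts in the 483 cells. Timepoint and pool were not balanced in this comparison: median depth was 849187 counts in pool A and 528731 in pool B. Doublets were not called, and the part of a second cell, of free RNA or of engulfed material in these counts was not tested.

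**Figure D1:**
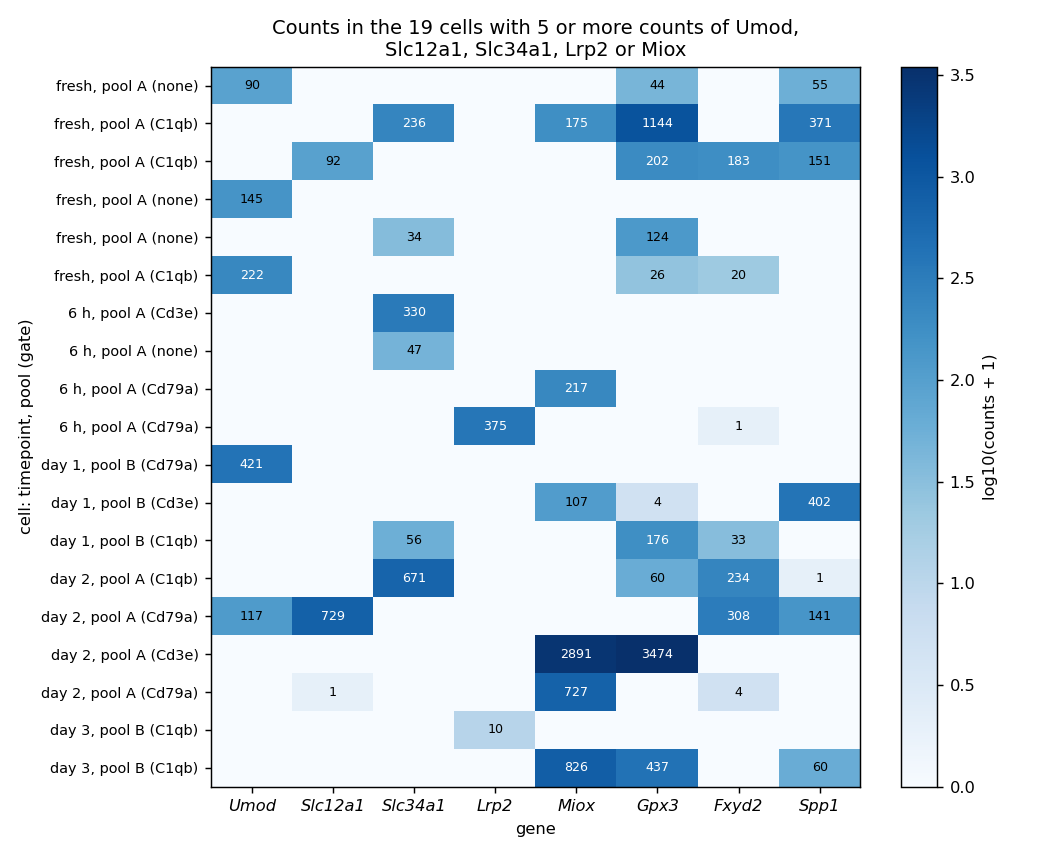
Counts of the 8 genes (columns) in each of the 19 cells with 5 or more counts of Umod, Slc12a1, Slc34a1, Lrp2 or Miox (rows, named by timepoint, pool and gate). Colour gives log10(counts + 1), printed numbers are counts and empty fields are 0. Most rows hold 1 of these 5 genes.

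A wider list of 47 tubule, collecting duct and epithelial genes was examined in the same cells. The number of these at 5 or more counts had a median of 1 in the 19 cells and 1 in the 483 others, with means of 2.21 and 1.05 and highest values of 10 and 6. The cell with 10 was the day 2 cell with 729 counts of Slc12a1. Of the 20 proximal tubule genes, 4 were read in no cell (Slc5a2, Slc22a8, Pck1 and Cyp4b1), 11 in 1 to 9 cells and 5 in 10 or more. The latter were Gatm (35.5% of cells), Napsa (31.3%), Ass1 (20.9%), Slc13a3 (26 cells) and Kap (19). Gatm was read at 5 or more counts in 79.5% of C1qb cells, 1 Cd3e cell and 55 cells in none of the gates described below, and Napsa in 60.8% of Cd79a cells, 11 C1qb cells, 3 Cd3e cells and 84 cells in none. The 10 genes of the thick ascending limb and distal segments were each read in 1 (Klhl3) to 10 cells (Ppp1r1a and Wfdc15b). Of 10 collecting duct genes, 3 were read in no cell, Aqp2 among them, and Scnn1a was read in 35, of which 26 of the 27 with 5 or more counts were in none of the gates. The 7 general epithelial genes were read in 2 (Krt18 and Pax8) to 15 cells (Epcam). Podocyte genes were read in 0 (Nphs1 and Wt1) to 6 cells (Synpo), and endothelial genes in 0 (Emcn) to 85 cells (Pecam1, also a leukocyte gene). Of 5 erythroid genes, Hba.a1 was read in 10 cells and Hbb.bt in none; red cells had been lysed before the sort. Of 11 genes of other organs, 7 were read in no cell, Alb among them, and Prm1 was read most often, in 2 cells.

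Gpx3, which encodes the secreted glutathione peroxidase made largely by the proximal tubule, was read in 70 cells (13.9%, interval 11% to 17.3%). The gene lies on chromosome 11 from 54902453 to 54910377 on the plus strand. Counts were found in 17 of 75 fresh cells of pool A (22.7%, mean level 69.05 rpm), 11 of 76 cells of 6 h (14.5%, 16.7 rpm) and 4 of 78 cells of day 2 (5.13%, 54.1 rpm). In pool B they were found in 6 of 81 fresh cells (7.41%, 37.2 rpm), 18 of 75 day 1 cells (24%, 34.98 rpm) and 11 of 82 day 3 cells (13.4%, 47.8 rpm). On day 4 none of the 19 cells of pool B and 3 of the 14 of pool C held Gpx3. Shares and means did not follow one order: day 2 had the lowest share of the first 6 groups at 1 or more counts (at 5 or more, fresh cells of pool B were lower, 4.94% against 5.13%), and its mean fell from 54.1 to 9.20 rpm without the highest cell. In fresh cells of pool B the mean likewise fell, from 37.2 to 16.1 rpm. Low counts were uncommon, with 11 of the 70 values at 1 to 4.

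Fxyd2 encodes the gamma subunit of the sodium pump of the tubule. Its position is chromosome 9 from 45399669 to 45410278, plus strand. Reads were found in 64 cells (12.7%, interval 9.96% to 16%), and 20 of its values were 1 to 4 counts. In pool A, 6 of 75 fresh cells, 14 of 76 cells of 6 h and 16 of 78 day 2 cells held it, with mean levels of 5.59, 19.3 and 13.9 rpm. In pool B the numbers were 7 of 81 fresh, 8 of 75 day 1 and 8 of 82 day 3 cells, with means of 26.3, 22.6 and 44.4 rpm. Without the highest cell of each group these means were 2.87, 13.1 and 7.62 rpm in pool A and 10.3, 4.47 and 22.99 rpm in pool B, and all but that of 6 h fell by over 1.5 times. At 5 or more counts, 6, 7 and 5 cells of pool A and 6, 7 and 8 of pool B were left, and the intervals of all 6 shares overlapped. On day 4, 2 of 19 cells of pool B (348 and 535 counts) and 3 of 14 of pool C (829, 1333 and 2224 counts) held it, 4 of the 5 being C1qb cells. The mean was then 110.8 rpm in pool B and 288.3 rpm in pool C, and 48.2 and 163.5 rpm without the highest cell.

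Spp1 encodes osteopontin, a secreted phosphoprotein of tubule cells and of some macrophages. The gene is at chromosome 5 from 104435118 to 104441050 on the plus strand, where it overlaps Gm42793 on the same strand. Counts were found in 55 cells (10.96%, interval 8.36% to 14%), and 25 of its values were 1 to 4 counts. In fresh cells the pools differed: 13 of 75 cells held it in pool A (17.3%, interval 9.57% to 27.8%) and 0 of 81 in pool B. In preserved cells of pool A it was read in 2 of 76 cells of 6 h and 24 of 78 day 2 cells (30.8%, interval 20.8% to 42.2%), and in pool B in 10 of 75 day 1 cells (13.3%) and 2 of 82 day 3 cells. At 5 or more counts, day 2 had 6 cells (7.69%) and fresh pool A had 10 (13.3%), so the order of these 2 groups turned with the threshold. The highest values were 1761 and 1153 counts in Cd79a cells of day 1, 1720 in a C1qb cell of day 4, pool C, and 1347 in a fresh cell of pool A outside the gates. Both Cd79a cells held Ptprc (1203 and 1330 counts).

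**Figure D2:**
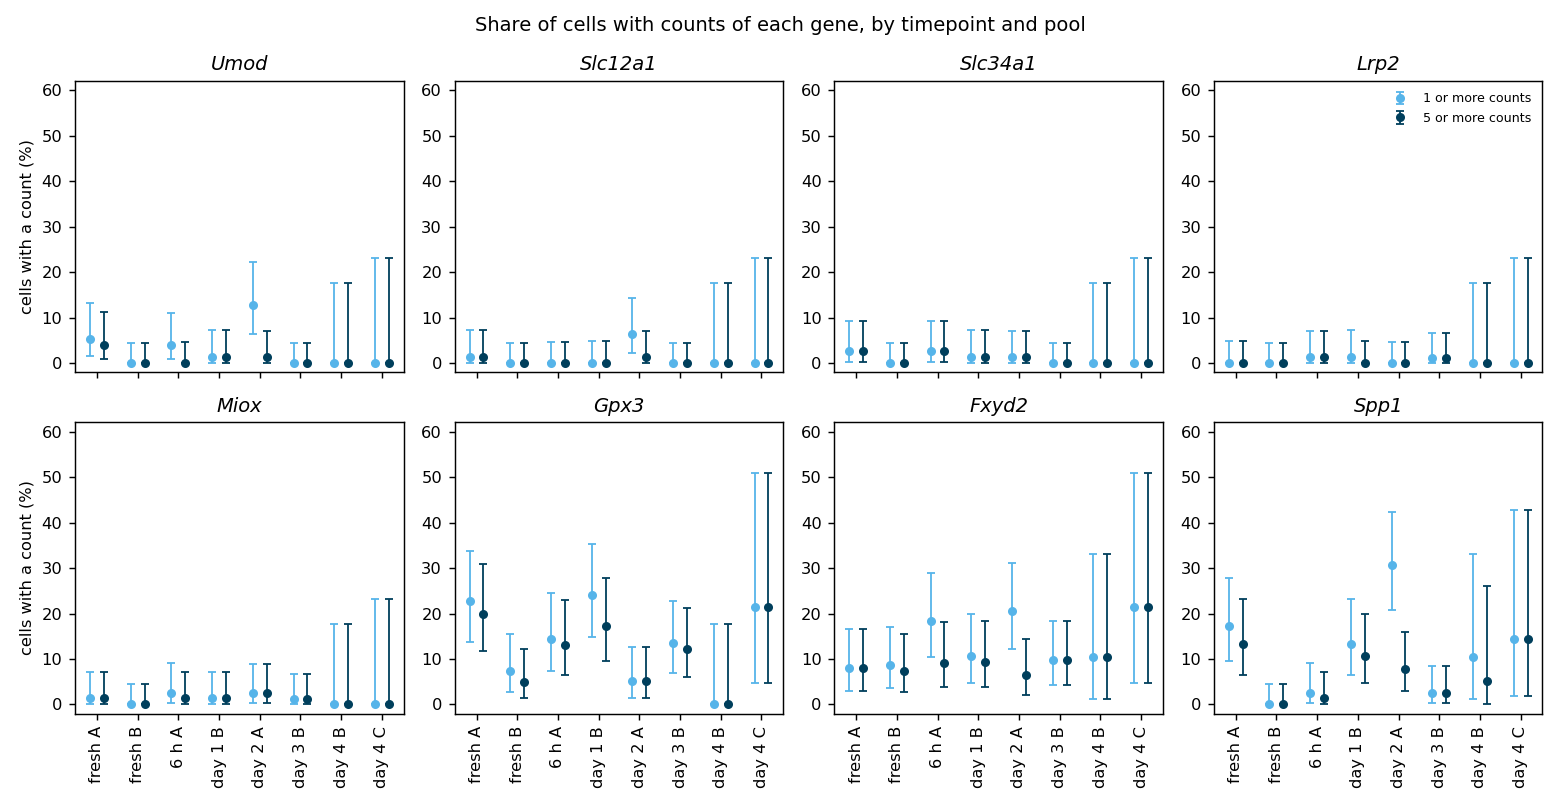
Percent of cells with 1 or more counts (light) and 5 or more counts (dark) of each gene by timepoint and pool, with exact 95% intervals; the 2 cells of day 4 in pool A are left out. For Umod, Slc12a1, Fxyd2 and Spp1 the light and dark points of day 2 lie apart, while for Slc34a1 they coincide.

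Levels in preserved cells were set beside those of fresh cells of the same pool, over all genes read in at least 10 cells of the 2 groups together. A gene was called when the ratio of its mean rpm, with 1 rpm added to each mean, passed 2-fold. With 1 sample per group this is a statement of size and not a test, and comparisons within a pool share their fresh cells. The groups also differed in cell type by the gates described below. In pool A, C1qb cells were 8 of 75 fresh, 5 of 76 6 h and 15 of 78 day 2 cells. In pool B they were 8 of 81 fresh, 22 of 75 day 1, 55 of 82 day 3 and 11 of 19 day 4 cells. The part of cell type in the ratios was not tested. At 6 h, 16.6% of 9280 genes were called higher and 11.6% lower than in fresh cells of pool A, and 3 members passed the filter. Gpx3, read in 11 cells of 6 h and 17 fresh cells, had a log2 ratio of -1.98. Fxyd2 (14 cells of 6 h and 6 fresh) and Spp1 (2 and 13) had 1.62 and -3.07, but passed the filter only through the group with the higher level, so these values are a description and support no difference. With fresh cells of both pools as comparison, Fxyd2 was at 0.22. At day 2, 21.6% of 8898 genes were called higher and 17% lower than in the same fresh cells. Of the 4 members that passed there, none kept a 2-fold difference under every alternative. Umod, read in 10 day 2 cells and 4 fresh cells, was at -1.23, at -0.71 with 5 rpm added in place of 1, and at -0.35 with all fresh cells. It moved the other way on summed counts (-1.81, -1.96 with TMM and -1.90 with size factors) and without the highest cell of each group (-2.09). Spp1 was at -1.92, and at -0.89 with all fresh cells, while its other alternatives lay between -1.48 and -2.06. Fxyd2, which passed only through day 2, was at 1.17 and did not hold: it was 0.83 with 5 rpm added, 0.39 on summed counts (0.20 with TMM and 0.26 with size factors) and -0.22 with all fresh cells. Gpx3, which passed only through fresh cells, was at -0.35. The Gpx3 value became -2.27 without the highest cell of each group. At day 1, 16.3% of 8069 genes were called higher and 19.6% lower than in fresh cells of pool B. Gpx3 (-0.09) and Fxyd2 (-0.21) did not pass 2-fold, and without the highest cells these became 0.79 and -1.04. Spp1 was read in 10 cells of day 1 and in none of the fresh cells, so it could be compared only through the group where it was read, and no ratio is given. At day 3, 17.2% of 7739 genes were called higher and 21.2% lower, and neither Gpx3 (0.35) nor Fxyd2 (0.73) was called; without the highest cells these were 1.03 and 1.09. Gpx3 (11 cells of day 3 and 6 fresh) passed the filter only through day 3, so its values support no difference. Fxyd2 passed 2-fold on summed counts too (1.00, 1.07 with TMM and 1.05 with size factors) and with all fresh cells (1.39). It did not pass with 5 rpm added (0.66), and a single cell held 62.5% of its day 3 counts. At day 4 in pool B, 13.7% of 5635 genes were higher and 46% lower, and no member was read in enough cells. The median log2 ratio over all genes was 0.14 and 0.16 in the pool A comparisons, -0.14 and -0.13 in those of day 1 and day 3, and -0.77 in that of day 4.

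Fresh cells of the 2 pools, which share a timepoint, differed as well. Of 8978 genes, 19.9% were 2-fold higher in pool A than in pool B and 24.2% lower. Fxyd2 was lower in pool A (log2 ratio -2.05, or -1.54 without the highest cells) and was read in 6 fresh cells of pool A and 7 of pool B. Gpx3 was at 0.87, or 1.52 without the highest cells, but passed the filter only through pool A (17 cells against 6), so this too is a description. Spp1 was read in 13 fresh cells of pool A and in none of pool B, and no ratio is given. The gates also differed between these groups, with 0 Cd79a cells and 9 Cd3e cells among the 75 of pool A against 16 and 44 among the 81 of pool B. The part of cell type in these differences was not tested. Mean levels are over all cells of a group, those with no count included, so they combine the share of cells with a transcript and its level in them.

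Cells were then gated by 5 or more counts of exactly 1 of C1qb (a complement gene of kidney macrophages), Cd3e (T cells) and Cd79a (B cells). C1qb cells made up 25.3% of the 502 cells, Cd3e cells 21.1% and Cd79a cells 14.7% (74 cells), with 38.2% in none of the gates and 3 cells in several. Median depths of the 3 gates were 616703, 708410 and 724591 counts. At 1 or more counts, any of the 8 genes was found in 40.9% of C1qb cells (interval 32.3% to 50.02%), 24.5% of Cd3e cells (16.7% to 33.8%) and 35.1% of Cd79a cells (24.4% to 47.1%). At 5 or more counts the shares were 36.2% (27.9% to 45.2%), 12.3% (6.69% to 20.1%) and 18.9%. After thinning every cell to 100000 counts the expected shares were 37.7%, 14.2% and 19.7%. The gates came from different timepoints and pools, and at 5 or more counts Cd3e cells of 6 h stood at 35%. Within day 2 the order turned at 1 or more counts, with 11 of 16 Cd3e, 9 of 15 C1qb and 13 of 29 Cd79a cells. At 5 or more counts these were 1, 6 and 4 cells.

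Gpx3 and Fxyd2 were the members read most often in C1qb cells. Gpx3 was read at 5 or more counts in 29 C1qb cells (22.8%, interval 15.9% to 31.1%), 6 Cd3e cells (5.66%, 2.11% to 11.9%), 2 Cd79a cells (2.70%, 0.329% to 9.42%) and 22 cells in none of the gates (11.5%). Its median level in the cells where it was read was 226.5 rpm in C1qb cells and 24.4 rpm in Cd3e cells. Fxyd2 at 5 or more counts was found in 25 C1qb cells (19.7%, 13.2% to 27.7%), 5 Cd3e cells (4.72%), 5 Cd79a cells (6.76%) and 8 cells in none (4.17%). Its mean level was 102.98 rpm in C1qb cells, 12.1 in Cd3e cells and 9.35 in Cd79a cells, and without the highest cell of each gate 88.6, 7.60 and 2.69 rpm. Of the genes most closely tied to the tubule, Slc34a1 was read in 3 C1qb, 1 Cd3e and 0 Cd79a cells, Miox in 2 of each, and Umod at 5 or more counts in 1, 0 and 2. These numbers are too small to order the gates at this depth.

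C1qb cells were not spread evenly over time, with 55 of them at day 3. Within day 2, Gpx3 at 5 or more counts was found in 3 of 15 C1qb cells, 1 of 16 Cd3e cells and 0 of 29 Cd79a cells. Within day 1 it was found in 7 of 22 C1qb cells and 1 of 14 Cd79a cells, and at day 3 in 10 of 55 C1qb cells. Fxyd2 at the same threshold was found within day 1 in 5 of 22 C1qb and 1 of 14 Cd79a cells, and within day 2 in 2 of 15 C1qb, 0 of 16 Cd3e and 2 of 29 Cd79a cells. Gpx3 was thus read most often in C1qb cells within both timepoints, but the intervals of the gates overlapped within a timepoint for both genes. Among Cd3e cells, 3 of 20 of 6 h held Gpx3 and 3 held Fxyd2 at 5 or more counts, and 1 of the 44 fresh Cd3e cells of pool B held each of them.

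For Spp1 the shares and the means gave different orders. At 5 or more counts it was read in 12 C1qb cells (9.45%), 1 Cd3e cell (0.943%), 5 Cd79a cells (6.76%) and 11 cells in none (5.73%). The mean level was highest in Cd79a cells, at 134.2 rpm against 44.8 rpm in C1qb cells, and was 57 and 30.9 rpm without the highest cell of each. Without the 2 highest cells of each gate, a setting added after the values had been seen, it was 12.8 rpm in Cd79a cells and 18.5 rpm in C1qb cells, so the order of the means rested on 2 cells of day 1. Of the 8 Cd3e cells with 1 to 4 counts, 7 were of day 2.

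**Figure D3:**
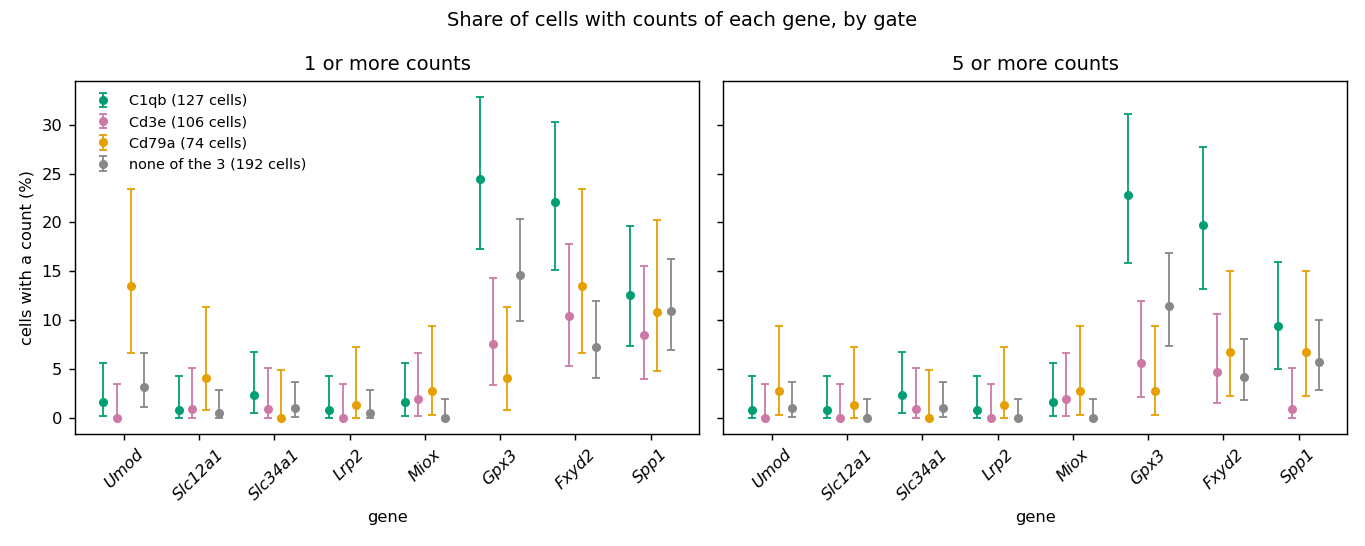
Percent of cells with 1 or more (left) and 5 or more counts (right) of each gene in C1qb, Cd3e and Cd79a cells and in cells of none of the 3 gates, with exact 95% intervals. Gpx3 and Fxyd2 lie highest in C1qb cells in both panels; the Umod point of Cd79a cells drops from 13.5% to 2.70% between the panels.

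Of the 46 cells with no Ptprc count, 8 held any of the 8 genes (17.4%, interval 7.82% to 31.4%), against 34.6% of the 456 cells with Ptprc (30.3% to 39.2%). The cells without Ptprc had a median of 986 genes and 512800 counts, against 1938 genes and 706527 counts, and after thinning the expected shares were 13.8% and 25.3%. Timepoint and pool were not balanced in this comparison: 29 of the 46 cells were of day 3 or day 4, where 19 of 82 and 7 of 35 cells held any of the genes. Within day 3 the genes were found in 3 of 16 cells without Ptprc and 16 of 66 with it, and within day 2 in 3 of 7 and 38 of 71. None of the 46 held Slc12a1, Slc34a1, Lrp2 or Miox, which allows a share of up to 6.52% for each by the same limit (7.71% by the exact interval). Umod was read in 3 of them, at 1 to 3 counts, Gpx3 in 2, Fxyd2 in 4 and Spp1 in 2. All 4 Fxyd2 values were 5 counts or more and the highest was 756, in a C1qb cell of day 3.

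Counts of 1 to 4 were examined apart after the 2 thresholds had been seen to give different orders. Over all genes and cells, 20.4% of the values above 0 were 1 to 4 counts, and the share was between 16.5% and 25.4% in every timepoint and pool. For the 8 genes in pool A it was 6 of 44 values in fresh cells (13.6%), 13 of 35 in cells of 6 h (37.1%) and 42 of 62 in day 2 cells (67.7%). In pool B it was 3 of 13 values in fresh cells (23.1%), 9 of 40 in day 1 cells (22.5%) and 1 of 23 in day 3 cells (4.35%). Day 2 stood highest by this measure, while its share over all genes was 23.5%. Its 42 low values were 18 of Spp1, 11 of Fxyd2, 9 of Umod and 4 of Slc12a1, with none of Slc34a1, Lrp2, Miox or Gpx3. Low values of Gpx3 were instead 5 at day 1 and 2 or fewer in each other group.

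**Figure D4:**
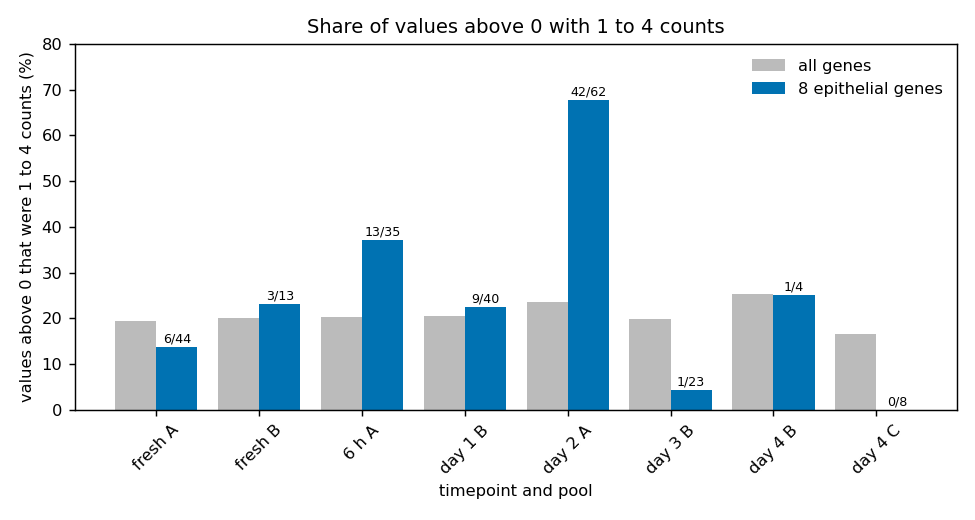
Percent of values above 0 that were 1 to 4 counts, for all genes (grey) and for the 8 epithelial genes (blue), by timepoint and pool, with the number of such values of the 8 genes over their values above 0. The blue bar of day 2 reaches 67.7% while the grey bars stay between 16.5% and 25.4%.

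The same was examined in 12 genes of the thick ascending limb and distal segments, Umod and Slc12a1 among them. Values of 1 to 4 counts of any of these were found in 24 of 78 day 2 cells (30.8%), 7 of 75 fresh cells of pool A (9.33%) and 7 of 76 cells of 6 h (9.21%). In pool B they were found in 1 fresh cell, 1 day 1 cell and no day 3 cell. The 24 cells were 6 of the 6 in plate row G, 8 of 12 in row E and 10 of the 60 in rows A to D and F. They covered 9 of the 12 genes. On the day 2 plate, cells of a row shared 1 of their 2 library indexes. Of the 13 pool A cells with 1 to 3 counts of Umod, 5 (38.5%) shared an index with a cell of the pool with 90 or more, and so did 41.1% of the pool A cells with no Umod count (88 cells). For Slc12a1 none of the 4 cells with 1 count shared an index in this way, and 24% of the cells with none did. In the same pool, 22 of 22 cells with low counts of Spp1 shared an index with a cell of 5 or more counts, and so did 91.1% of cells with none; for Fxyd2 it was 16 of 18 cells (88.9%) and 94.9%. The part of plate row, of index exchange and of free RNA in the low counts was not tested.

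**Figure D5:**
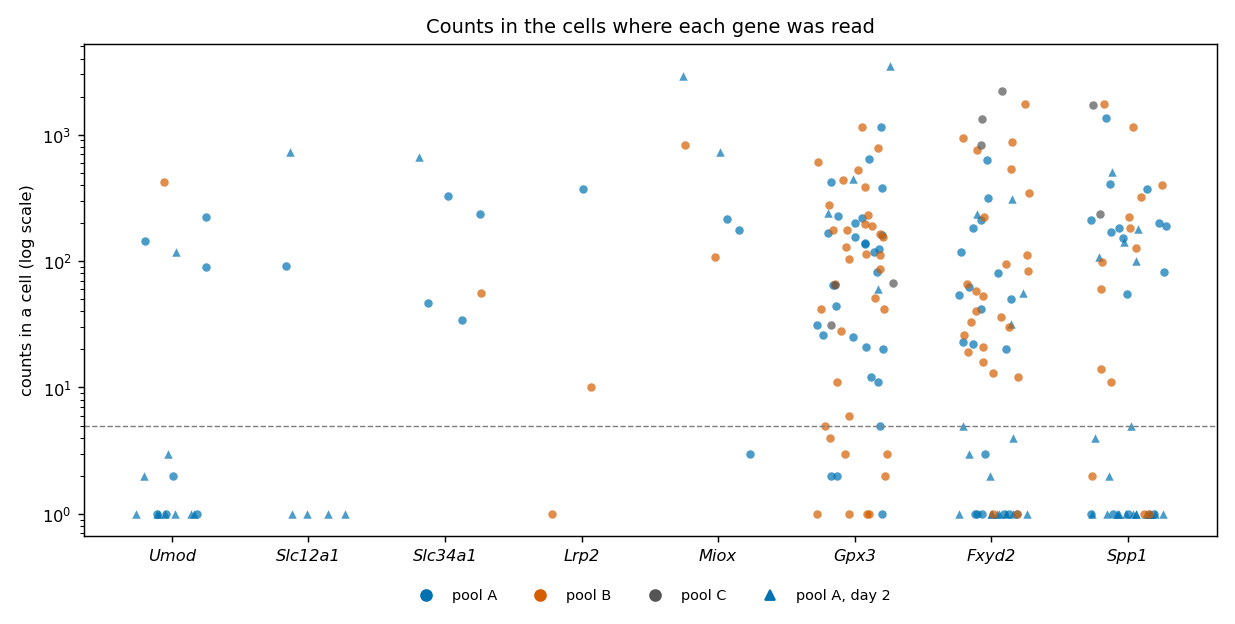
Counts (log scale) in every cell in which a gene was read, coloured by pool, with triangles for day 2 of pool A and a dashed line at 5 counts; points are spread sideways for display. Umod and Slc12a1 have a gap between 3 counts or fewer and 90 or more, Slc34a1 has no value under 34, and many of the values at 1 count are triangles.

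Co-occurrence within cells was then described over all 502 cells as Pearson's r of log2(rpm + 1), without a test, since cells share a timepoint, plate and pool and most values are 0. Among the 28 pairs of members the highest value was 0.34, for Umod with Slc12a1, which rests on 1 cell with 5 or more counts of both. Gpx3 with Fxyd2 had 0.23 and shared 15 cells at 5 or more counts, of 59 and 44. The gene most like Umod among 12436 genes was Wfdc15b, another thick ascending limb gene, at 0.56 with 2 cells in common, followed by Gm17430 (0.34), RP24.322F4.3 (0.33), Map3k9 (0.30) and Gm5514 (0.28). For Slc34a1 the highest was Gm8752 (0.41), then Hist1h2bq (0.34), Igf1 (0.33), Nos3 (0.32) and Proscos (0.32), each with 1 or 2 cells in common. For Spp1 they were Idh1 (0.29), Nsl1 (0.29), Hdac8 (0.27), H2.DMb1 (0.26) and Uhrf1 (0.25), with 6 to 33 cells in common. The genes most like the others were looked at after these values had been seen. Slc12a1 had Ppp1r1a (0.63) and Wfdc15b (0.55) first, both genes of the thick ascending limb and distal list, with only 3 and 2 cells in common, then Gm5514 (0.46), Igfbp7 (0.45) and Tmem116 (0.45) with 2 or 3. Among the 5 genes most like Gpx3 were Grn (0.28), Ms4a7 (0.27), Fcgr1 (0.26) and Fabp3 (0.26), with 53, 23, 38 and 4 cells in common; the first 3 of these are known from macrophages, and Fabp3 encodes a fatty acid-binding protein. Fxyd2 had Ltc4s (0.37), Igf1 (0.34), Kcnj10 (0.29), Gas6 (0.29) and Oplah (0.28), with 10, 8, 8, 14 and 4 cells in common. Lrp2 had Zc3h12c (0.42), Zcchc24 (0.42), H2.Eb2 (0.34) and Gm13248 (0.34), with 1 to 3 cells in common, and Miox had Tmem108 (0.27), Gm16416 (0.27), Gm12389 (0.26), RP23.286M3.4 (0.26) and Zbed5 (0.25), with 2 to 5.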

How the data were processed

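Single Cd45+ kidney cells were sequenced by the authors with a SmartSeq2-type protocol and 1 library per cell. The authors cut reads to 75 bp, took out duplicates (picard), mapped the rest with STAR to GRCm38 and assigned reads to genes with HTSeq without regard to strand, in its intersection-strict mode. The shallowest cells had been excluded, and versions of picard, STAR and HTSeq were not stated in the sources used. The deposited values are raw counts per gene for 502 cells. The 97 spike-in and vector rows (0.140% of counts) were left out. Counts were divided by the cell's gene total to give rpm. Gene positions and exon lengths are from GENCODE M21 (GRCm38), promoters from RefSeq. The members, gene lists and alternatives were chosen with earlier results of these data known. Named genes are the 8 members, Ptprc, C1qb, Cd3e and Cd79a, the most and least often read of each wider list, and the 5 genes most like Umod, Slc34a1 and Spp1; others were named after their values were seen. Some genes among those most like a member are not reported here. Expected shares after thinning are hypergeometric, at 100000 counts, and 8 shallower cells were left out. Alternative scalings used edgeR 4.0.16 (TMM) and DESeq2 1.42.0 (size factors) on summed counts; other values used Python 3.11.15 with scipy 1.17.1. Levels per kilobase without the highest cell or on summed counts, and shares by Ptprc within a timepoint, were added after the values had been seen. The fold calls were run on simulated counts in which only genes with many counts per cell were changed. The members have no count in most cells, so that run does not cover them. For the likeness ranking, the check only asked whether a gene ranked first with itself. Reads carry no molecular identifiers. Because no label names an animal and cells are not replicates, intervals cover counting error only.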

Additional observations from a re-analysis of the deposited data

How the results depend on the processing

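No paired analysis was possible because no test was made, no label names an animal and cells are not replicates. A value with no test was held to have moved when it left its exact 95% interval, or changed by over 1.5 times for means and counts. The share of cells with any of the 8 genes, 33.1%, became 22.5% at 5 or more counts, 22.1% at 10 or more rpm and 24.4% after thinning to 100000 counts. Summed over the 5 comparisons within a pool, the members gave 3 values past 2-fold higher and 4 lower, of 12, beside 17.4% and 21.2% of all values; 4 of these 7 passed the filter only through the group with the higher level, so the counts support nothing. With no filter beyond 1 count there were 14 and 7 of 30 (all genes 19.9% and 23.9%), and without the highest cell of each group 5 and 6 of 12 (16.7% and 28.6%). The log2 ratio of Fxyd2 at day 2 turned from 1.17 to -0.22 with all fresh cells as comparison. The share of C1qb cells with a member was 60% within day 2, 30.9% within day 3 and 27.3% within day 4 of pool B. For Cd3e cells it was 6.82% within fresh cells of pool B, 40% within 6 h and 68.8% within day 2, and for Cd79a cells 18.8% within fresh cells of pool B. The causes were not tested. Shares by Ptprc stayed within their intervals with cells of 100000 counts or more and at a Ptprc threshold of 5 counts. Without its highest cell, the mean rpm of Umod, Slc12a1, Slc34a1, Lrp2 and Miox (not per kilobase) fell from 2.68, 2.55, 4.59, 0.671 and 9.99 to 1.52, 0.217, 1.83, 0.0719 and 4.17. The number of cells limits what a count of 0 shows, most at day 4.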
